A study of Mus musculus with 16 samples.

Results

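The genes described here build the lysosome and make it acidic: subunits of the vacuolar proton pump (V-ATPase), the hydrolases of the lumen and proteins of the limiting membrane. A list of 45 mouse names was matched to the deposited count table by Ensembl ID. This gave 44 genes of the 53801 in the table, since Limp2 has no row of its own and the protein of that name is encoded by Scarb2, which is on the list. All 44 passed the filter on low counts. They fall into 9 genes of the V-ATPase V0 sector and its accessory proteins, 7 of the V1 sector, 7 membrane proteins, 8 cathepsins and other peptidases, 8 glycosidases, and 5 lipid and acyl hydrolases and saposins.

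RNA was sequenced in a mouse acute myeloid leukemia line carrying MLL-AF9, an oncogenic gene fusion that transforms blood progenitors, grown in medium with serum, interleukin 3 and stem cell factor. The groups were MCT4-KO cells at 2% oxygen, control cells at 2% oxygen, MCT4-KO cells at 20% oxygen and control cells at 20% oxygen, with 4 libraries each and 16 in all. MCT4, encoded by Slc16a3, is the plasma membrane carrier that exports lactate together with a proton. The knockout was made by CRISPR-Cas9 and the control cells carried a non-targeting guide RNA; in both, Cas9 had been switched on with 4-OHT (4-hydroxytamoxifen) before culture at either oxygen level. The line is a single cell line, and neither the time at 2% oxygen nor whether the knockout is a clone or a pool is given in the sources used here. Nothing says that the numbered replicates came from separate cultures; the p-values therefore reflect only how much these libraries varied, which may be technical.

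The lysosome digests proteins, glycans and lipids at low pH. The V-ATPase sets that pH: its V1 sector, on the cytosolic face, hydrolyses ATP, and its membrane-embedded V0 sector carries protons into the lumen. Many genes of this system share a promoter motif that is bound by transcription factors of the TFEB family, and in myeloid cells lysosomal enzymes are also stored in granules.

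Library totals were 21192179 to 28871459 estimated counts, and 13774 genes were tested. Slc16a3 was at 358 to 370.3 CPM in MCT4-KO cells at 2% oxygen and 789 to 844 CPM in control cells at 2% oxygen, and at 70.4 to 94.7 CPM in MCT4-KO cells at 20% oxygen and 184 to 235 CPM in control cells at 20% oxygen. Its transcript was thus lower in every MCT4-KO library than in any control library of the same oxygen level, by -1.15 ± 0.072 on the log2 scale at 2% and -1.39 ± 0.076 at 20% oxygen. Of the 7 leukemia progenitor markers, Ptprc, Kit, Cd34, Spi1, Hoxa9, Meis1 and Mpo, all were expressed, with a summed level of 1603 to 1669 CPM in MCT4-KO and 1566 to 1679 CPM in control cells at 2% oxygen, and 1582 to 1613 CPM in MCT4-KO and 1515 to 1554 CPM in control cells at 20% oxygen. Mitochondrially encoded genes took 0.241% to 0.413% of the counts at 2% oxygen and 0.605% to 0.984% at 20% oxygen. Levels are in CPM, each gene's counts relative to its library's TMM-scaled total, and come library by library or as mean ± SD over 4 libraries. Each change is a log2 fold change with its SE, from edgeR's quasi-likelihood test. The words rise and fall are kept for genes with an adjusted p under 0.05.

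At 2% oxygen most of the 44 genes were higher, with and without MCT4. In MCT4-KO cells 33 rose and 7 fell, where 76.4% of all tested genes were called, 37.7% higher and 38.7% lower. In control cells 33 rose and 6 fell, where 78.3% of all tested genes were called, 38.7% higher and 39.6% lower. These are bulk samples, in which more or fewer cells of a type and more or less RNA per cell cannot be told apart. The median log2 fold change of the 44 genes was 0.38 in MCT4-KO cells, beside -0.014 for all genes tested, and 0.46 in control cells, beside -0.017. Changes of at least 1.5-fold were called for 18 of the 44 in MCT4-KO cells, against 34.6% of all tested genes, and for 20 of the 44 in control cells, against 39.0%. The summed level of the 44 genes was 8085 ± 64.02 CPM in MCT4-KO cells at 2% oxygen, 8227 ± 145 CPM in control cells at 2% oxygen, 6019.6 ± 78.2 CPM in MCT4-KO cells at 20% oxygen and 5859.6 ± 179.9 CPM in control cells at 20% oxygen. As shares of library totals, without TMM, the 44 took 0.761% to 0.770% in MCT4-KO and 0.751% to 0.769% in control cells at 2% oxygen. At 20% oxygen they took 0.636% to 0.655% in MCT4-KO and 0.598% to 0.639% in control cells.

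The classes were counted separately. Among the digestive enzymes, 7 of 8 peptidases, 7 of 8 glycosidases and 5 of 5 lipid and acyl hydrolases and saposins rose at 2% oxygen in MCT4-KO cells, with median log2 fold changes of 0.51, 0.70 and 0.60. The counts were equal in control cells, with medians of 0.59, 0.71 and 0.67. In the V-ATPase, 6 of 9 V0 and accessory genes rose and 3 fell in both genotypes, and 4 of 7 V1 genes rose and 0 fell. Of the 7 membrane proteins 4 rose in both genotypes, while 3 fell in MCT4-KO and 2 in control cells. When libraries were scaled by size alone, the median of all genes tested moved by -0.18 in MCT4-KO and -0.20 in control cells. The share of higher genes among all called genes was then 35.4% in MCT4-KO cells, against 49.3% with TMM, and 35.2% in control cells, against 49.4%. The counts of the 44 became 29 higher and 10 lower in MCT4-KO cells and 27 higher and 11 lower in control cells.

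**Figure D1:**
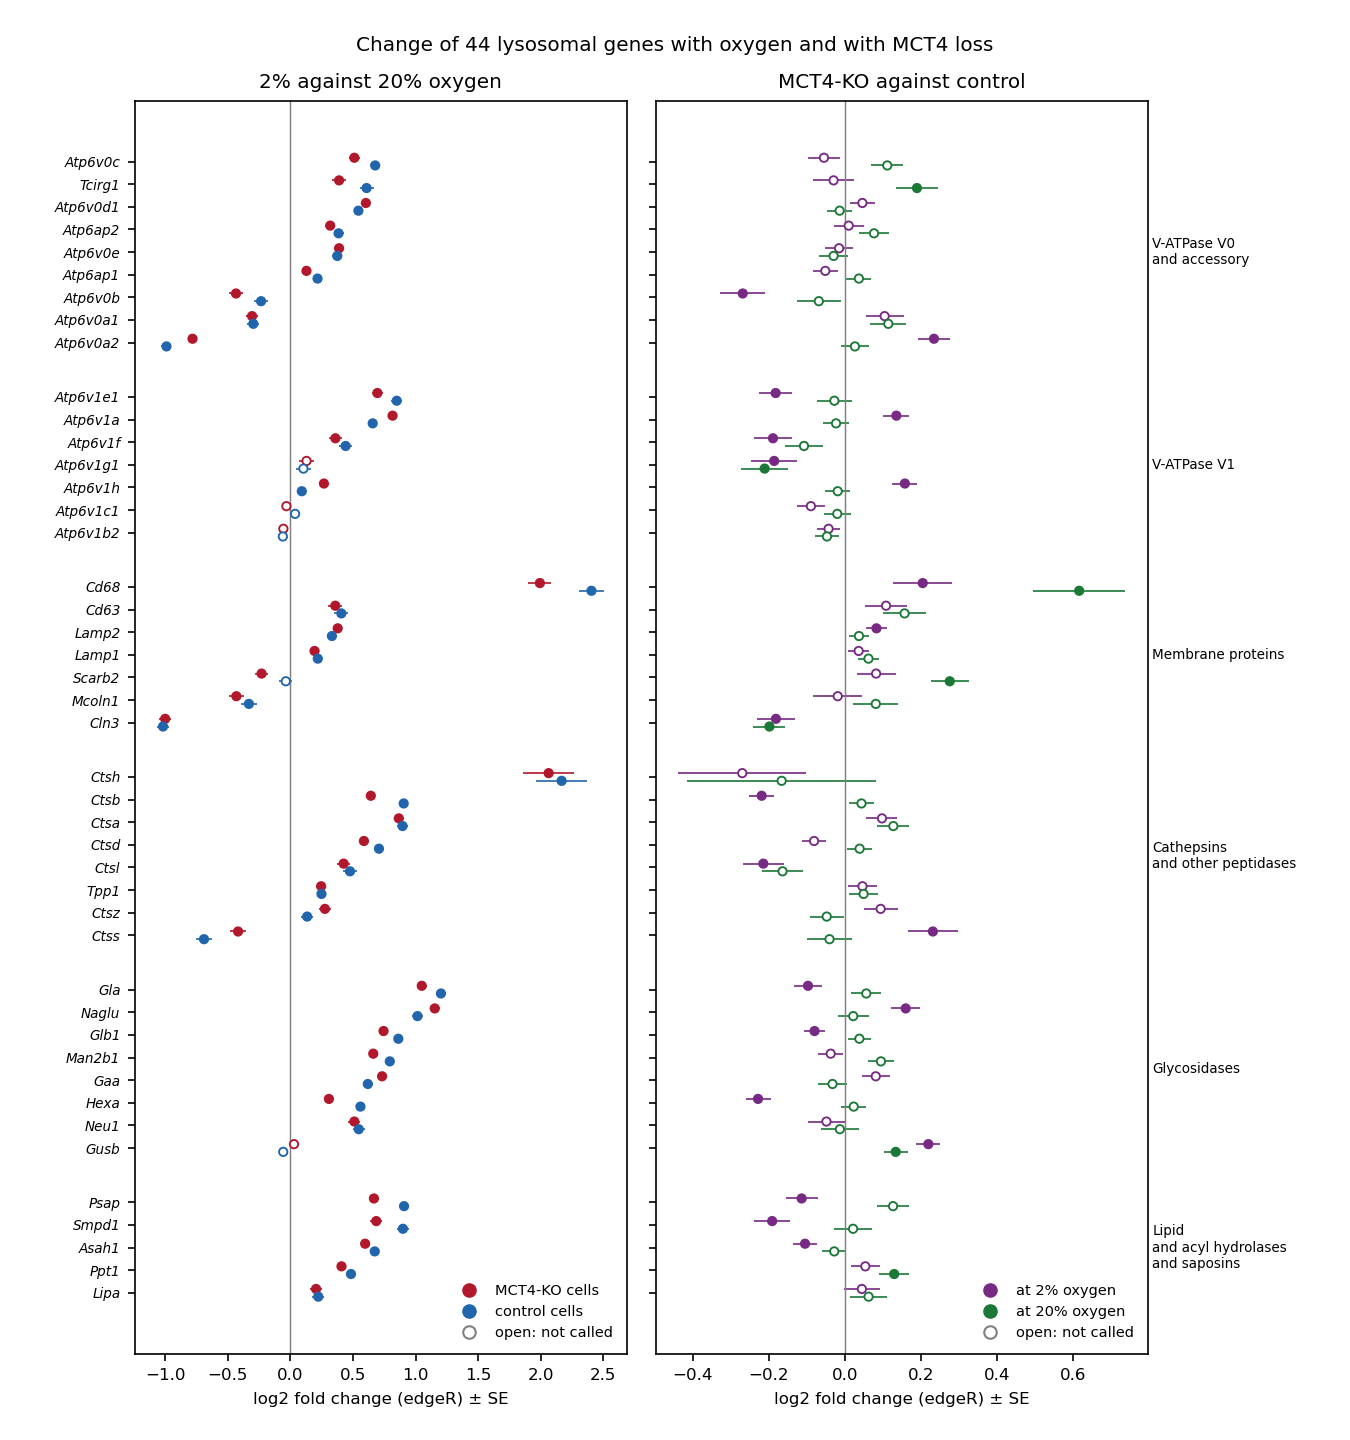
The log2 fold change ± SE of each of the 44 genes (n = 4 libraries per group), by class, at 2% against 20% oxygen on the left and in MCT4-KO against control cells on the right. Filled points were called at an adjusted p under 0.05 and open points were not; most points on the left lie right of 0, and Cd68 and Ctsh lie farthest out with log2 fold changes near 2.405 and 2.17 in control cells, while on the right all but Cd68 lie within 0.3 of 0.

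Promoter sequences were available for 36 of the 44 genes in a RefSeq table of GRCm38.p6, each with 250 bases before the annotated start and 50 after it. The hexamer CACGTG, the core of the motif that the TFEB family binds, was present in 14 of the 36 (38.9%), against 2187 of 27025 genes in the table (8.09%). By class it was found in 3 of 8 V0 and accessory genes, 1 of 3 V1 genes, 3 of 7 membrane proteins, 3 of 6 peptidases, 4 of 8 glycosidases and 0 of 4 lipid and acyl hydrolases with a sequence. Its 8-letter extension TCACGTGA was present in 8 (22.2%), against 304 genes (1.12%), and the full 10-letter palindrome of the CLEAR element (coordinated lysosomal expression and regulation) in 1 of the 36, Cln3, against 100 genes (0.370%). These letters read the same on both strands, and each shorter motif lies inside the longer ones. All 36 genes were tested here, while the 27025 include genes that were not, so these shares compare unlike sets. The stretches shown are the parts before the start, read in the direction of transcription with matches in capitals, of 3 enzyme genes that rose at 2% oxygen, of Lamp1 with its 4 copies, and of the 3 motif-bearing genes that fell. They are Gla at chrX:134601173-134601253 (minus strand), Naglu at chr11:101070001-101070046 (plus strand), Ctsd at chr7:142387899-142388077 (minus strand), Lamp1 at chr8:13159080-13159160 (plus strand), Mcoln1 at chr8:3500428-3500500 (plus strand), Cln3 at chr7:126583330-126583405 (minus strand) and Atp6v0b at chr4:117887330-117887385 (minus strand).
Gla: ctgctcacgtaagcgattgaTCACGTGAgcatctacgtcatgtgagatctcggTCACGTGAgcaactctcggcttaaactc
Naglu: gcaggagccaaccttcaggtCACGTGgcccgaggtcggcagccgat
Ctsd: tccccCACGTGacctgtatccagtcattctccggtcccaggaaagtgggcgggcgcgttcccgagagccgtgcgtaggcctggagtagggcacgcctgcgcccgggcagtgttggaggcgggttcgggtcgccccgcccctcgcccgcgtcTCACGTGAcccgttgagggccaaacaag
Lamp1: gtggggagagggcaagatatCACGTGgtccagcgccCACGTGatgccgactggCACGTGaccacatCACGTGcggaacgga
Mcoln1: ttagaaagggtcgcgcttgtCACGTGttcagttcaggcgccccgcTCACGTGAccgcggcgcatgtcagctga
Cln3: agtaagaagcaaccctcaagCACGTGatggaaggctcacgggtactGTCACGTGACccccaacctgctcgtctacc
Atp6v0b: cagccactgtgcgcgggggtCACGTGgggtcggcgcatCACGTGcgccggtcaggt

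The oxygen response was counted separately for genes with and without these letters. Of the 14 genes with CACGTG, 11 rose and 3 fell at 2% oxygen in both genotypes, with a median log2 fold change of 0.60 in MCT4-KO and 0.58 in control cells. Of the 22 with a promoter and no CACGTG, 18 rose and 3 fell in MCT4-KO cells, with a median of 0.36, and 18 rose and 2 fell in control cells, with a median of 0.42. Among the 14, log2 changes in control cells ranged from 1.203 for Gla, with a pair of 8-letter matches, to -1.02 for Cln3, with the longest match. A match describes letters in a window and is not evidence of binding. The part of the motif in the oxygen response was not tested.

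**Figure D2:**
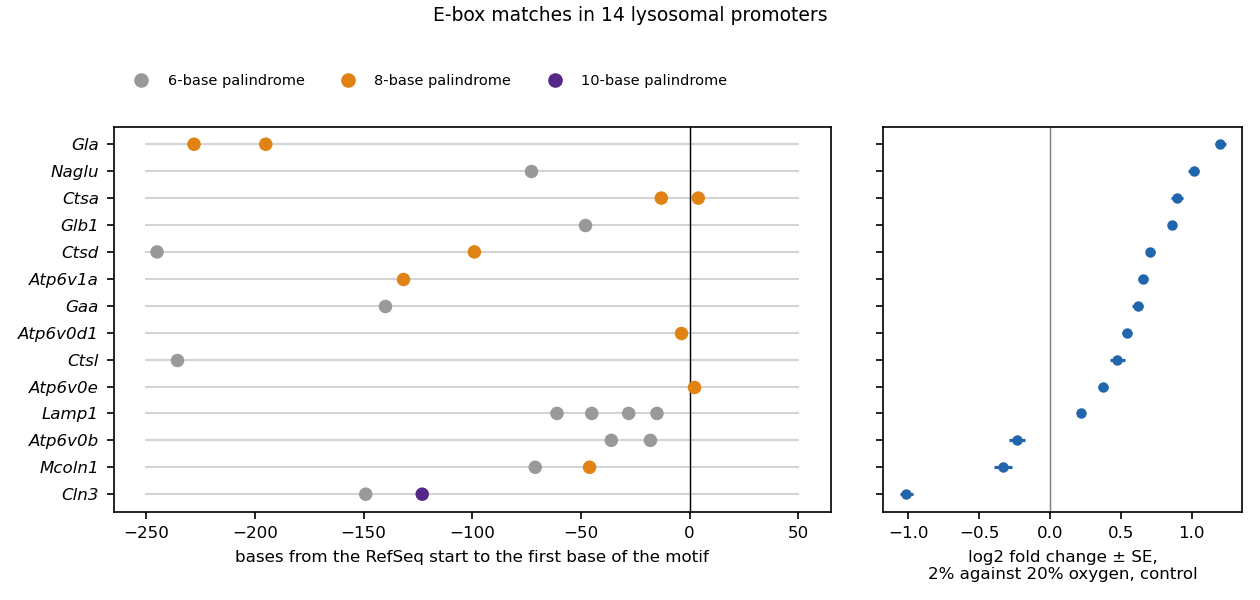
Position of each CACGTG match in the 14 promoters that hold one (left; bases from the RefSeq start at 0, coloured by the length of the longest palindrome matched) beside the gene's log2 fold change ± SE at 2% against 20% oxygen in control cells (right). Genes are ordered by that change, from Gla at 1.203 to Cln3 at -1.02; matches of 8 letters or more occur in 6 genes that rose and in Mcoln1 and Cln3, which fell.

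The glycosidases summed to 2036 ± 10.3 CPM in MCT4-KO and 2059 ± 20.4 CPM in control cells at 2% oxygen, and to 1437 ± 20.4 CPM in MCT4-KO and 1386 ± 35.6 CPM in control cells at 20% oxygen. Gla encodes alpha-galactosidase A, which removes terminal galactose from glycolipids and is deficient in Fabry disease. Its level was 90.1, 89.1, 91.96 and 88.9 CPM in MCT4-KO cells at 2% oxygen and 94.3, 96.5, 95.95 and 98.6 CPM in control cells at 2% oxygen. At 20% oxygen it was 40.1, 42.5, 46.7 and 44.5 CPM in MCT4-KO cells and 42.7, 41.97, 40.9 and 41.7 CPM in control cells. Every library at 2% oxygen stood above every library at 20%, and the log2 fold change was 1.05 ± 0.038 in MCT4-KO cells (adjusted p = 1.08e-15) and 1.203 ± 0.038 in control cells (adjusted p = 1.04e-16). Naglu, the N-acetylglucosaminidase of heparan sulfate breakdown, had 162, 156, 155 and 158 CPM in MCT4-KO cells at 2% oxygen and 143, 144, 141 and 138 CPM in control cells at 2% oxygen. It had 70.2, 65.98, 75.95 and 71.8 CPM in MCT4-KO and 69.7, 70.7, 65.6 and 73.5 CPM in control cells at 20% oxygen. The oxygen levels again did not overlap, with changes of 1.15 ± 0.04 in MCT4-KO cells and 1.02 ± 0.04 in control cells. Glb1, the lysosomal beta-galactosidase, rose by 0.74 ± 0.029 in MCT4-KO cells and 0.86 ± 0.029 in control cells. The rises in control cells were 0.79 ± 0.034 for Man2b1, an alpha-mannosidase, 0.62 ± 0.038 for Gaa, the glycogen-degrading alpha-glucosidase, and 0.55 ± 0.049 for Neu1, a sialidase. Hexa, the alpha subunit of beta-hexosaminidase, rose by 0.31 ± 0.033 in MCT4-KO cells and 0.56 ± 0.033 in control cells. Gusb, beta-glucuronidase, was the exception: its log2 difference was 0.029 ± 0.031 in MCT4-KO cells (adjusted p = 0.409) and -0.057 ± 0.032 in control cells (adjusted p = 0.106).

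Among the well expressed peptidases, Ctsb and Ctsa rose most in control cells. Ctsb encodes cathepsin B, a cysteine protease. It had 385, 391, 376 and 376 CPM in MCT4-KO cells at 2% oxygen and 452, 437, 432 and 456 CPM in control cells at 2% oxygen, against 233, 244, 251 and 250.5 CPM in MCT4-KO and 243, 246, 226 and 234 CPM in control cells at 20% oxygen. All libraries at 2% oxygen exceeded all at 20%, and within 2% oxygen the MCT4-KO libraries lay below the control libraries. The oxygen change was 0.64 ± 0.034 in MCT4-KO cells and 0.91 ± 0.034 in control cells (adjusted p = 1.53e-15). Ctsa, a serine carboxypeptidase that also protects Neu1 and Glb1 in a complex, had 199.5, 195, 184 and 193 CPM in MCT4-KO and 185, 182, 186 and 169 CPM in control cells at 2% oxygen. Its level at 20% oxygen was 101, 105, 110.4 and 107 CPM in MCT4-KO and 92.2, 103, 93.1 and 99.8 CPM in control cells. It was higher at 2% oxygen in every library, by 0.87 ± 0.042 in MCT4-KO cells (adjusted p = 1.04e-13) and 0.90 ± 0.042 in control cells. Ctsd, the aspartic protease cathepsin D, rose by 0.59 ± 0.033 in MCT4-KO cells and 0.71 ± 0.033 in control cells. Ctsl, cathepsin L, rose by 0.43 ± 0.054 and Tpp1, tripeptidyl peptidase, by 0.25 ± 0.037 in MCT4-KO cells, and by 0.48 ± 0.054 and 0.25 ± 0.037 in control cells; the call of Tpp1 was lost with scaling by library size in both genotypes (0.068 in MCT4-KO and 0.044 in control cells). Ctsz, cathepsin Z, rose by 0.28 ± 0.045 in MCT4-KO cells and 0.13 ± 0.045 in control cells, where the direction turned to -0.071 with scaling by library size. Ctsh, cathepsin H, changed most in size, by 2.06 ± 0.21 in MCT4-KO cells and 2.17 ± 0.20 in control cells, but from low levels: 2.41 to 2.79 and 2.42 to 3.54 CPM in MCT4-KO and control cells at 2% oxygen, against 0.435 to 0.895 and 0.523 to 0.889 CPM in MCT4-KO and control cells at 20% oxygen.

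Cathepsin S went the other way. Ctss, a cysteine protease of antigen-presenting cells, had 13.4, 12.6, 13.4 and 14.7 CPM in MCT4-KO cells at 2% oxygen and 11.1, 11.5, 11.2 and 12.3 CPM in control cells at 2% oxygen. At 20% oxygen it had 19.1, 18.4, 17.5 and 17.3 CPM in MCT4-KO and 19.6, 19.9, 17.2 and 17.6 CPM in control cells. It was lower at 2% oxygen in all libraries, by -0.42 ± 0.061 in MCT4-KO cells (adjusted p = 2.89e-06) and -0.69 ± 0.063 in control cells (adjusted p = 2.75e-09), and it was the 1 peptidase of the 8 to fall.

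The 5 genes of sphingolipid and lipid breakdown rose under TMM, 4 of them also with scaling by library size. Psap, the precursor of the saposins that present sphingolipids to their hydrolases, had 651, 639, 644 and 640.3 CPM in MCT4-KO cells at 2% oxygen and 676, 684, 674 and 751 CPM in control cells at 2% oxygen. It had 403, 400.1, 404 and 413 CPM in MCT4-KO and 387, 384, 333 and 379 CPM in control cells at 20% oxygen. The oxygen levels did not overlap; replicate 4 of the control cells at 2% oxygen was the highest library and replicate 3 of the control cells at 20% oxygen the lowest. The change was 0.67 ± 0.043 in MCT4-KO cells and 0.91 ± 0.043 in control cells. Smpd1, acid sphingomyelinase, had 65.01, 61.9, 60.2 and 61.3 CPM in MCT4-KO and 72.5, 71.7, 72.1 and 67.3 CPM in control cells at 2% oxygen, and 37.6, 37.2, 39.8 and 39.7 CPM in MCT4-KO and 39.9, 41.6, 35.6 and 34.9 CPM in control cells at 20% oxygen. It rose by 0.69 ± 0.049 in MCT4-KO cells and 0.90 ± 0.049 in control cells, again without overlap between oxygen levels. Asah1, acid ceramidase, which acts on the ceramide that Smpd1 releases, had 125, 129.8, 126 and 123 CPM in MCT4-KO and 134, 134, 135 and 139.7 CPM in control cells at 2% oxygen. Libraries at 20% oxygen had 82.98, 82.4, 83.3 and 84.7 CPM in MCT4-KO and 89.3, 85.1, 83.6 and 81.9 CPM in control cells. Its rise was 0.60 ± 0.032 in MCT4-KO cells (adjusted p = 5.08e-13) and 0.67 ± 0.032 in control cells (adjusted p = 5.65e-14). Ppt1, palmitoyl-protein thioesterase, rose by 0.48 ± 0.039 in control cells, and Lipa, lysosomal acid lipase, by 0.22 ± 0.048. The call of Lipa was lost with scaling by library size in both genotypes (0.028 in MCT4-KO and 0.018 in control cells).

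**Figure D3:**
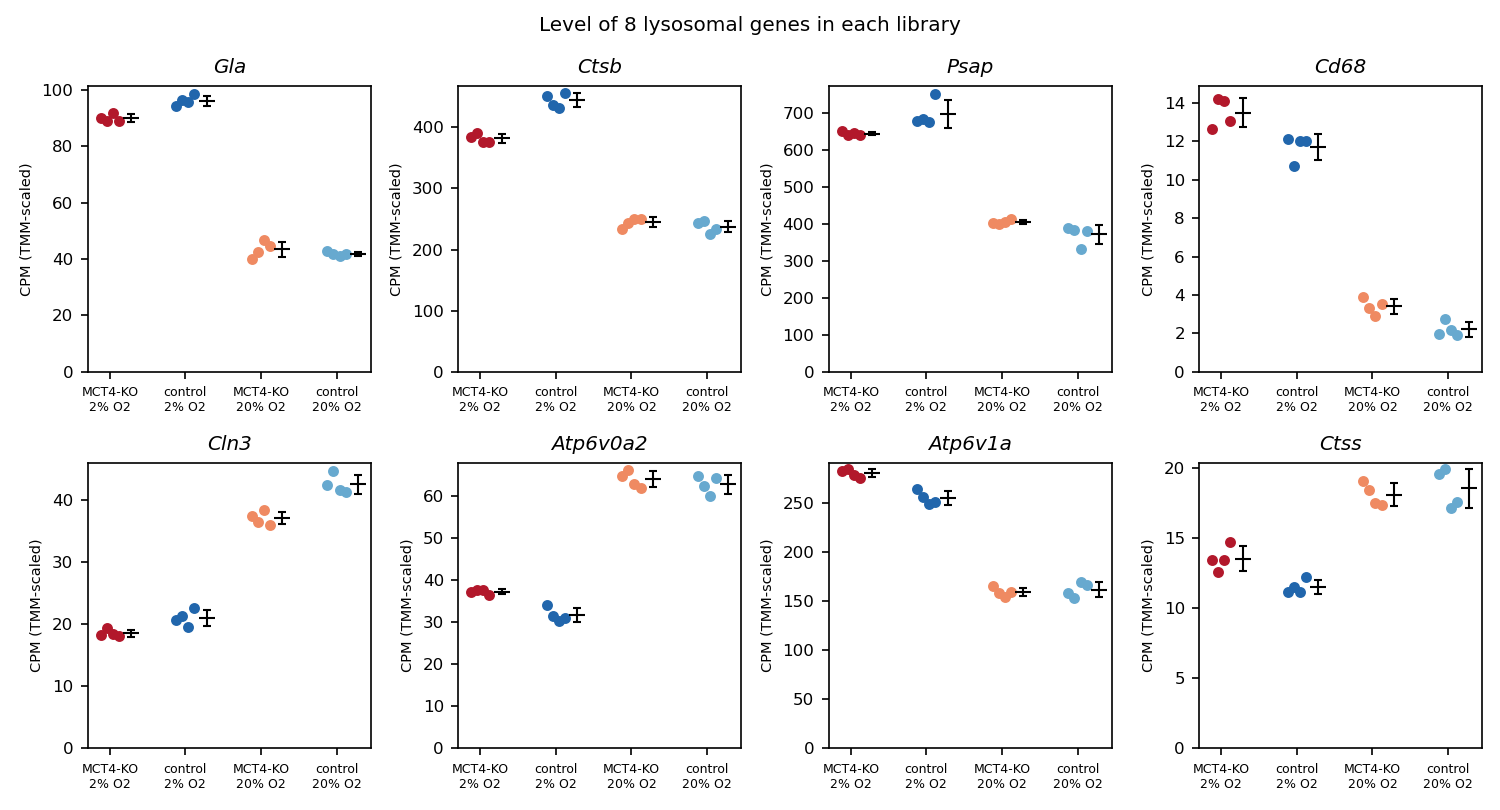
TMM-scaled CPM of 8 genes in each of the 16 libraries (points), with mean ± SD beside them (n = 4). Gla, Ctsb, Psap, Cd68 and Atp6v1a were higher and Cln3, Atp6v0a2 and Ctss lower in every 2% oxygen library than in any 20% oxygen library. At 2% oxygen Gla, Ctsb, Psap and Cln3 were lower in each MCT4-KO library than in any control library. Cd68, Atp6v0a2, Atp6v1a and Ctss were higher in each MCT4-KO library than in any control library at 2% oxygen.

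The V-ATPase did not move as a block. In the V1 sector, Atp6v1a, the catalytic A subunit, had 283, 285, 279.5 and 276 CPM in MCT4-KO cells at 2% oxygen and 265, 257, 249 and 251 CPM in control cells at 2% oxygen. It had 165, 158, 155 and 159.6 CPM in MCT4-KO and 159, 153, 170.1 and 166 CPM in control cells at 20% oxygen. All 2% oxygen libraries were higher, by 0.82 ± 0.035 in MCT4-KO cells (adjusted p = 1.38e-14) and 0.66 ± 0.035 in control cells. Atp6v1e1, of the peripheral stalk, had 130.3, 127, 124 and 131 CPM in MCT4-KO and 142, 140.1, 139 and 159.5 CPM in control cells at 2% oxygen. At 20% oxygen it had 78.2, 80.5, 78.7 and 78.6 CPM in MCT4-KO and 83.1, 84.5, 80.5 and 74.02 CPM in control cells. It rose by 0.70 ± 0.045 in MCT4-KO cells and 0.85 ± 0.045 in control cells (adjusted p = 3.76e-13), without overlap. Atp6v1f, of the central stalk, rose by 0.36 ± 0.051 in MCT4-KO cells and 0.44 ± 0.05 in control cells. Atp6v1h, a regulatory subunit, rose by 0.27 ± 0.032 in MCT4-KO cells and 0.092 ± 0.033 in control cells; the call in control cells was lost without replicate 1 at 20% oxygen (0.073, adjusted p = 0.062) or replicate 2 at 2% oxygen (0.073, adjusted p = 0.070), and the direction turned to -0.11 with scaling by library size. The other V1 genes were not called: in control cells the difference was -0.06 ± 0.031 for Atp6v1b2, which pairs with the A subunit in the catalytic ring, 0.038 ± 0.036 for Atp6v1c1 and 0.10 ± 0.061 for Atp6v1g1, both of the stalks.

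In the V0 sector, subunits of the proton-carrying ring and its attachments mostly rose. Atp6v0c, the main subunit of the ring, rose by 0.51 ± 0.042 in MCT4-KO cells and 0.68 ± 0.042 in control cells. Atp6v0d1, which joins V0 to the central stalk, rose by 0.60 ± 0.032 in MCT4-KO cells and 0.54 ± 0.032 in control cells, and Atp6v0e by 0.39 ± 0.038 in MCT4-KO cells and 0.37 ± 0.038 in control cells. The accessory proteins Atp6ap2 and Atp6ap1 rose by 0.32 ± 0.04 and 0.13 ± 0.033 in MCT4-KO cells and by 0.39 ± 0.04 and 0.22 ± 0.033 in control cells, of which Atp6ap1 was called under TMM but not under scaling by library size in either genotype. Atp6v0b, the other ring subunit, fell, by -0.43 ± 0.059 in MCT4-KO cells and -0.23 ± 0.059 in control cells. Its levels were 82.8 to 87.6 and 96.9 to 114 CPM in MCT4-KO and control cells at 2% oxygen, and 104 to 122 and 107 to 125 CPM in MCT4-KO and control cells at 20% oxygen, so the control libraries of the oxygen levels overlapped.

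Per kilobase of exon, the V-ATPase genes in control cells at 20% oxygen ranged from 76.4 ± 5.67 CPM for Atp6v1f down to 5.48 ± 0.217 CPM for Atp6v0a1. The length used joins the exons of all annotated transcripts of a gene. It can exceed that of the transcript expressed, so ranks between genes are approximate. Atp6v0d1 stood at 86.7 ± 0.637 and 83.9 ± 1.39 CPM per kilobase in MCT4-KO and control cells at 2% oxygen, and at 57.04 ± 1.90 and 57.6 ± 2.17 in MCT4-KO and control cells at 20% oxygen. Atp6v1b2, the partner of Atp6v1a in the catalytic ring, averaged 30.5 ± 0.687 CPM per kilobase at 2% and 31.7 ± 0.429 at 20% oxygen in MCT4-KO cells, while Atp6v1a averaged 46.5 ± 0.694 at 2% and 26.4 ± 0.722 at 20% oxygen.

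**Figure D4:**
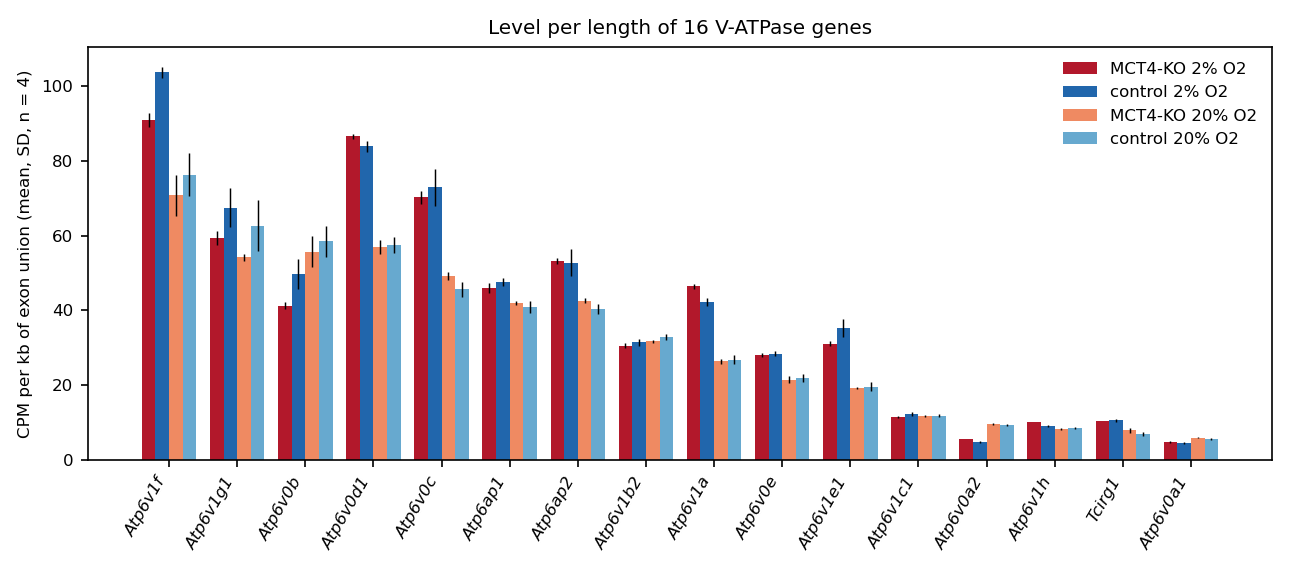
CPM per kilobase of exon union of the 16 V-ATPase genes (bars, mean; error bars, SD; n = 4 libraries per group), ordered by the level in control cells at 20% oxygen. Atp6v0d1, Atp6v0c and Atp6v1a stand higher at 2% oxygen, and Atp6v0a2 lower.

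The a subunit, the large V0 protein beside the ring that also steers the pump to different membranes, is encoded by alternative genes, and these moved in opposite directions. Atp6v0a2, whose product is best known from the Golgi, had 37.2, 37.7, 37.5 and 36.3 CPM in MCT4-KO cells at 2% oxygen and 33.9, 31.3, 30.2 and 30.9 CPM in control cells at 2% oxygen. It had 64.8, 66.1, 62.9 and 61.8 CPM in MCT4-KO and 64.6, 62.2, 59.8 and 64.1 CPM in control cells at 20% oxygen. Its level was lower in every 2% oxygen library, by -0.78 ± 0.039 in MCT4-KO cells (adjusted p = 1.99e-13) and -0.99 ± 0.04 in control cells (adjusted p = 5.05e-15). Tcirg1, which encodes the a3 subunit of lysosomes and osteoclasts, had 47.7, 47.96, 47.2 and 47.9 CPM in MCT4-KO and 48.2, 49.2, 51.1 and 46.2 CPM in control cells at 2% oxygen. Its level at 20% oxygen was 33.3, 34.4, 39.96 and 37.8 CPM in MCT4-KO and 31.2, 29.96, 30.99 and 35.4 CPM in control cells. It was higher in every 2% oxygen library, by 0.39 ± 0.055 in MCT4-KO cells and 0.61 ± 0.056 in control cells. Atp6v0a1 changed by -0.31 ± 0.048 in MCT4-KO cells and -0.30 ± 0.049 in control cells.

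Per kilobase of exon, the order of these a subunit genes differed between the oxygen levels. Tcirg1 made up 50.1% ± 0.720 of their summed CPM per kilobase in MCT4-KO and 53.6% ± 1.52 in control cells at 2% oxygen, and 33.8% ± 2.11 in MCT4-KO and 31.9% ± 1.27 in control cells at 20% oxygen. Atp6v0a2 made up 26.7% ± 0.169 in MCT4-KO and 23.8% ± 1.19 in control cells at 2% oxygen, and 40.7% ± 1.91 in MCT4-KO and 42.9% ± 1.36 in control cells at 20% oxygen (SD, n = 4). Atp6v0a1 stayed between 21.5% and 26.4% in all libraries. By this measure, Tcirg1 was thus first at 2% and Atp6v0a2 first at 20% oxygen in each library. Atp6v0a4, the remaining a subunit gene of the mouse and not among the 44, had 0 counts in all libraries.

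**Figure D5:**
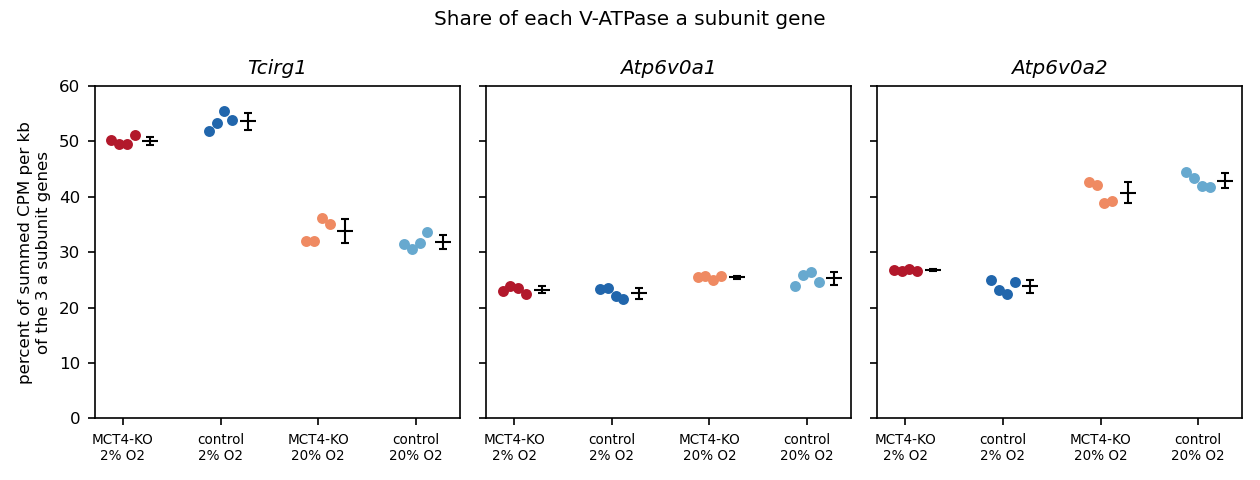
Share of Tcirg1, Atp6v0a1 and Atp6v0a2 in their summed CPM per kilobase, in percent, for each library (points) with mean ± SD (n = 4). Tcirg1 averages 50.1% and 53.6% in MCT4-KO and control cells at 2% oxygen and 33.8% and 31.9% in MCT4-KO and control cells at 20% oxygen, and Atp6v0a2 shows the reverse order.

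The membrane proteins split. Cd68, a heavily glycosylated LAMP family protein of macrophages and granule-bearing cells, had 12.6, 14.2, 14.1 and 13.03 CPM in MCT4-KO cells at 2% oxygen and 12.1, 10.7, 12.02 and 12.03 CPM in control cells at 2% oxygen. Cd68 at 20% oxygen stood at 3.87, 3.33, 2.904 and 3.51 CPM in MCT4-KO and 1.94, 2.76, 2.18 and 1.94 CPM in control cells. The oxygen levels lay far apart, with 1.99 ± 0.091 in MCT4-KO cells (adjusted p = 5.04e-14) and 2.405 ± 0.10 in control cells (adjusted p = 1.01e-14), a 3.98-fold rise in MCT4-KO and a 5.29-fold rise in control cells. The abundant structural proteins rose less: Lamp1 by 0.22 ± 0.028, Lamp2 by 0.33 ± 0.027 and the tetraspanin Cd63 by 0.41 ± 0.057 in control cells. The call of Lamp1 was lost with scaling by library size in both genotypes (0.016 in MCT4-KO and 0.015 in control cells). Cln3, whose loss causes juvenile neuronal ceroid lipofuscinosis, had 18.3, 19.3, 18.4 and 18.1 CPM in MCT4-KO and 20.7, 21.3, 19.5 and 22.6 CPM in control cells at 2% oxygen. At 20% oxygen it had 37.3, 36.5, 38.3 and 36.03 CPM in MCT4-KO and 42.5, 44.7, 41.6 and 41.2 CPM in control cells. It was about 0.494 times its 20% level at 2% oxygen in control cells, with log2 changes of -0.9995 ± 0.046 in MCT4-KO cells and -1.02 ± 0.045 in control cells and no overlap. Mcoln1, a calcium channel of the lysosomal membrane, changed by -0.43 ± 0.062 in MCT4-KO cells and -0.33 ± 0.063 in control cells. Scarb2, a sorting receptor that is also a structural protein of the lysosomal membrane, fell in MCT4-KO cells by -0.23 ± 0.05, with a difference of -0.036 ± 0.052 in control cells (adjusted p = 0.53). The test of that difference between genotypes did not pass the threshold (interaction -0.19 ± 0.072, adjusted p = 0.0569).

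Summed levels of the granulocyte and of the monocyte and macrophage marker lists were higher at 2% oxygen in both genotypes. The granulocyte list held Elane, Prtn3, Ctsg, Ltf, Lcn2, Camp, Ngp, Mmp8, Mmp9, S100a8, S100a9, Csf3r, Cebpe, Ly6g and Cd177. Ctsg is also on the list of other lysosomal peptidases described below. The granulocyte list summed to 5699 to 6092 CPM in MCT4-KO and 6064 to 6485 CPM in control cells at 2% oxygen, and to 2478 to 2735 CPM in MCT4-KO and 2416 to 2728 CPM in control cells at 20% oxygen. Of its 13 tested genes 9 rose and 3 fell in each genotype. A monocyte and macrophage list, without Cd68, summed to 896 to 907 CPM in MCT4-KO and 982 to 1027 CPM in control cells at 2% oxygen, and to 611 to 645 CPM in MCT4-KO and 581 to 612 CPM in control cells at 20% oxygen, with 5 of 11 tested genes higher and 4 lower in each genotype. Of all tested genes, 37.7% were higher and 38.7% lower in MCT4-KO cells, and 38.7% and 39.6% in control cells. The monocyte and macrophage counts were near these shares and mixed in direction. Granule proteins and lysosomal enzymes share storage sites, and the part of cell maturation in the rise of the 44 genes was not tested. Summed levels of lists for other lineages also differed between the oxygen levels. These sums were lower, a few genes can carry them, and calls of their single genes are not given here. The erythroid list summed to 27.7 to 29.99 CPM in MCT4-KO and 30.5 to 32.1 CPM in control cells at 2% oxygen, and to 5.06 to 6.51 CPM in MCT4-KO and 5.202 to 7.204 CPM in control cells at 20% oxygen. The fibroblast list, which includes Thy1 and of which 2 genes were tested, moved with genotype as well: 123 to 133 CPM in MCT4-KO and 75.3 to 83.7 CPM in control cells at 2% oxygen, and 45.7 to 52.9 CPM in MCT4-KO and 28.5 to 35.5 CPM in control cells at 20% oxygen. Megakaryocyte genes summed to 17.7 to 21.1 CPM in MCT4-KO and 25.4 to 28.4 CPM in control cells at 2% oxygen, against 6.03 to 6.17 CPM in MCT4-KO and 4.74 to 5.75 CPM in control cells at 20% oxygen. Lymphocyte genes summed to 14.2 to 15.5 CPM in MCT4-KO and 11.6 to 14.95 CPM in control cells at 2% oxygen, against 4.17 to 5.73 CPM in MCT4-KO and 3.02 to 3.81 CPM in control cells at 20% oxygen. Mast cell genes lay at 125 to 136 CPM in MCT4-KO and 127 to 135 CPM in control cells at 2% oxygen, and at 111 to 118 CPM in MCT4-KO and 102 to 109 CPM in control cells at 20% oxygen. Defining markers at 0 counts in all libraries were Fcer1a, Cma1 and Tpsb2 of mast cells, Dcn, Col1a2 and Lum of fibroblasts, Gp1bb of megakaryocytes, and Cd3e and Cd4 of lymphocytes. The part of these lists in the changes of the 44 genes was not tested.

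At 20% oxygen few genes were called in MCT4-KO against control cells, among the 44 as among all tested genes. Of the 44, 5 rose and 2 fell, where 9.76% of all tested genes were called, 4.96% higher and 4.80% lower, and the median difference was 0.032, beside -0.0051 for all genes tested. With scaling by library size 8 rose and 2 fell, and the share of higher genes among all called genes was 60.1%, against 50.8% with TMM. Cd68 changed most: with the values above, all MCT4-KO libraries exceeded all control libraries, by 0.62 ± 0.12 (adjusted p = 0.00242, higher in 4 of 4 libraries), and was the 1 change of at least 1.5-fold, a size that 1.41% of all tested genes passed. Scarb2 had 27.5, 28.9, 28.7 and 27.005 CPM in MCT4-KO cells and 22.7, 22.9, 23.7 and 23.4 CPM in control cells, without overlap (0.28 ± 0.05, adjusted p = 0.00119). Gusb had 347, 348, 353 and 341 CPM in MCT4-KO and 311, 339, 308 and 308 CPM in control cells (0.13 ± 0.031, adjusted p = 0.0092); replicate 2 of the controls, at 339 CPM, came closest to the MCT4-KO libraries. Cln3 fell, by -0.20 ± 0.042 (adjusted p = 0.00439), with no MCT4-KO library reaching the lowest control. Of the 13 granulocyte markers 4 rose and 3 fell, and of the 11 monocyte and macrophage markers 5 rose and 1 fell; their part in these changes was not tested.

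The other 3 calls at 20% oxygen were lost when single libraries were left out. Tcirg1 rose by 0.19 ± 0.056 (adjusted p = 0.0381), a call lost without any 1 of control replicates 1, 2 and 3 and MCT4-KO replicates 3 and 4, with differences of 0.14 to 0.25 over all omissions. Ppt1 had 76.3, 81.5, 85.8 and 76.3 CPM in MCT4-KO and 72.5, 76.2, 72.5 and 71.3 CPM in control cells (0.13 ± 0.039, adjusted p = 0.0398), a call lost when any 1 of control replicates 1, 3 and 4 or of MCT4-KO replicates 2 and 3 was left out (0.095 to 0.15 over all omissions). Atp6v1g1 had 61.9, 60.2, 61.5 and 62.5 CPM in MCT4-KO and 79.3, 76.2, 63.2 and 65.99 CPM in control cells (-0.21 ± 0.061, adjusted p = 0.0332), a call lost when control replicate 1, control replicate 2 or any 1 of the MCT4-KO replicates was left out (-0.26 to -0.15 over all omissions). Fitted on the libraries at 20% oxygen alone, these 3 calls were lost, leaving 3 genes higher and 1 lower. By class, the calls were 1 V0 gene, 1 V1 gene, 3 membrane proteins, 1 glycosidase and Ppt1.

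At 2% oxygen more genes were called in MCT4-KO against control cells, among the 44 as among all tested genes, and in both directions. Of the 44, 8 rose and 13 fell, where 38.4% of all tested genes were called, 19.4% higher and 19.1% lower, with a median difference of -0.024, beside -0.0040 for all genes tested. No change was as large as 1.5-fold, a size that 3.62% of all tested genes passed. With scaling by library size the split was 15 higher and 8 lower, and the share of higher genes among all called genes was 63.1%, against 50.4% with TMM. Without replicate 4 of the control cells at 2% oxygen, which stood apart in several genes, 10 rose and 10 fell. With the marker sums given above, each MCT4-KO library lay below every control library in the monocyte and macrophage list, and the granulocyte ranges overlapped. Of the granulocyte markers 1 rose and 5 fell, of the monocyte and macrophage markers 4 rose and 2 fell, and their part in the result was not tested.

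The falls in MCT4-KO cells at 2% oxygen held 7 enzymes and Psap, 4 pump genes and Cln3; of the 8 that held under all alternatives, 4 were the enzymes Ctsb, Ctsl, Hexa and Smpd1. Ctsb differed by -0.22 ± 0.034 (adjusted p = 3.84e-05), with all MCT4-KO libraries at 376 to 391 CPM and all control libraries at 432 to 456 CPM. Hexa had 458, 449.6, 451 and 444 CPM in MCT4-KO and 532, 514, 528 and 538 CPM in control cells, a difference of -0.23 ± 0.033 (adjusted p = 2.03e-05) with no overlap. Smpd1 differed by -0.19 ± 0.047 (adjusted p = 0.00322) and Ctsl by -0.21 ± 0.053 (adjusted p = 0.00338), again without overlap. Asah1 differed by -0.10 ± 0.031 under TMM, a call lost with scaling by library size or with no count filter. The small falls of Psap (-0.11 ± 0.042), Gla (-0.10 ± 0.036) and Glb1 (-0.08 ± 0.028) were called under TMM but not with scaling by library size. That of Psap was also lost without control replicate 2 or 4 or any 1 of the MCT4-KO replicates (-0.13 to -0.074 over all omissions). That of Gla was lost when any 1 of control replicates 2 to 4 or of MCT4-KO replicates 1, 2 and 4 was left out (-0.11 to -0.084), and that of Glb1 without replicate 1 of either genotype, control replicate 3 or MCT4-KO replicate 4 (-0.088 to -0.062). Among pump genes, Atp6v0b changed by -0.27 ± 0.06, Atp6v1e1 by -0.18 ± 0.044 and Atp6v1f by -0.19 ± 0.05. Atp6v1g1 changed by -0.19 ± 0.061, a call lost without control replicate 4 (-0.13), without MCT4-KO replicate 2 and with scaling by library size. Cln3 differed by -0.18 ± 0.05 (adjusted p = 0.00666), so that it fell in MCT4-KO cells at both oxygen levels.

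Among the rises at 2% oxygen, Gusb and Atp6v0a2 had the smallest adjusted p. Gusb had 352, 355, 356 and 354 CPM in MCT4-KO and 304, 301, 304 and 308 CPM in control cells, a non-overlapping difference of 0.22 ± 0.032 (adjusted p = 1.93e-05), so that it rose in MCT4-KO cells at both oxygen levels. Atp6v0a2 was higher by 0.23 ± 0.042 (adjusted p = 1.85e-04) and Atp6v1a by 0.14 ± 0.034 (adjusted p = 0.00371). Atp6v1h had 98.7, 97.7, 98.8 and 97.3 CPM in MCT4-KO and 84.9, 90.6, 88.3 and 87.9 CPM in control cells (0.16 ± 0.033, adjusted p = 7.24e-04). In all 3 pump genes the MCT4-KO libraries lay above the control libraries. Naglu rose by 0.16 ± 0.039 and Ctss by 0.23 ± 0.066. Cd68 rose by 0.20 ± 0.078 (adjusted p = 0.0431) and Lamp2 by 0.083 ± 0.027; both calls were lost with no count filter. The call of Cd68 was also lost when any 1 of control replicates 1 to 3 or of MCT4-KO replicates 2 to 4 was left out (0.17 to 0.23 over all omissions) and with the DESeq2 Wald test, and that of Lamp2 without control replicate 3 (adjusted p = 0.052).

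Whether the knockout effect depended on oxygen was tested by the interaction, the log2 knockout difference at 2% minus that at 20% oxygen. Of the 44 genes 4 were higher and 9 lower, where 22.9% of all tested genes were called, 11.6% higher and 11.3% lower. No called interaction was as large as 1.5-fold, a size that 2.80% of all tested genes passed. With scaling by library size the split was 6 and 3, and the share of higher genes among all called genes was 60.1%, against 50.6% with TMM. Both knockout differences and their interaction are computed from the same libraries. Ctsb (-0.26 ± 0.048, adjusted p = 5.51e-04), Hexa (-0.25 ± 0.047, adjusted p = 6.57e-04) and Psap (-0.24 ± 0.06, adjusted p = 0.00685) were the 3 lower genes whose call held under all alternatives and omissions. In these the knockout difference at 20% oxygen was 0.044 ± 0.034, 0.023 ± 0.033 and 0.13 ± 0.043, not called, beside -0.22, -0.23 and -0.11 at 2%. Atp6v0a2 (0.21 ± 0.056, adjusted p = 0.0109) and Atp6v1h (0.18 ± 0.046, adjusted p = 0.00914) were the 2 higher genes whose call held likewise. Equivalently, the oxygen response of these 5 genes was smaller in MCT4-KO than in control cells for Ctsb, Hexa, Psap and Atp6v0a2 and larger for Atp6v1h.

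The remaining interaction calls did not hold under all alternatives and omissions. Atp6v1a (0.16 ± 0.049) was lost without replicate 3 of the control cells at either oxygen level or replicate 3 of the MCT4-KO cells at 20% oxygen, with values of 0.13 to 0.18 over all omissions. Ctss (0.27 ± 0.087) was lost without any 1 of 7 of the 16 libraries, with values of 0.23 to 0.31 over all omissions. Tcirg1 (-0.22 ± 0.078), Atp6v0c (-0.17 ± 0.06), Cd68 (-0.41 ± 0.14), Glb1 (-0.12 ± 0.041), Smpd1 (-0.21 ± 0.07) and Gla (-0.15 ± 0.054) were all lost with scaling by library size. The first 4 of these were also lost without any 1 of 12 libraries each, Smpd1 without any 1 of 10 and Gla without any 1 of 13, and all kept their sign in every omission.

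Other genes of the lysosome, a list of 116 genes of which 100 were tested, give the surroundings of these results. At 2% oxygen 48 rose and 30 fell in MCT4-KO cells and 52 rose and 32 fell in control cells, beside the 37.7% higher and 38.7% lower of all tested genes in MCT4-KO cells and the 38.7% and 39.6% in control cells. In control cells 14 of 18 other glycosidases and sulfatases rose and 3 fell, and 7 of 12 lipases, nucleases and phosphatases rose and 4 fell, with the smallest adjusted p for Npc2 (1.09 ± 0.033) and Gm2a (1.26 ± 0.043), the activator protein of Hexa. Of 12 other peptidases and inhibitors 7 rose and 1 fell in control cells, among them the cystatins Cst7 (2.06 ± 0.043) and Cst3 (1.25 ± 0.036), which inhibit cysteine cathepsins. The whole list of these peptidases and inhibitors summed to 1580.3 ± 40.7 CPM in MCT4-KO and 1749 ± 26.4 CPM in control cells at 2% oxygen, and to 1556 ± 44.2 CPM in MCT4-KO and 1680.4 ± 108 CPM in control cells at 20% oxygen. Of 23 membrane proteins outside the 44, 14 fell in both genotypes, while 3 rose in MCT4-KO and 5 in control cells. Their summed level was nevertheless 1908 ± 11.9 CPM in MCT4-KO and 1896 ± 82.2 CPM in control cells at 2% oxygen, above the 1704 ± 29.6 CPM in MCT4-KO and 1643 ± 40.3 CPM in control cells at 20% oxygen. Among those that fell in control cells were Clcn7 (-1.02 ± 0.071), a chloride-proton exchanger, and Npc1 (-0.75 ± 0.052), the cholesterol transporter that works with Npc2. In MCT4-KO against control cells, 19 of the 100 rose and 21 fell at 2% oxygen, near the 19.4% and 19.1% of all tested genes, with Npc2 at -0.35 ± 0.033, Arsb, a sulfatase, at 0.68 ± 0.10 and Vma21, a V-ATPase assembly factor, at 0.36 ± 0.052. At 20% oxygen 9 rose and 5 fell, beside 4.96% and 4.80% of all tested genes, with Arsb at 0.83 ± 0.15 and Cst7 at 0.28 ± 0.046. The interaction was called higher for 8 and lower for 16, beside 11.6% and 11.3% of all tested genes, among them Cst7 (-0.60 ± 0.06), which rose at 20% and fell at 2% oxygen (-0.32 ± 0.039). Of the TFEB family, Tfec rose (0.19 ± 0.036 in MCT4-KO, 0.40 ± 0.036 in control cells) and Tfe3 fell (-0.16 ± 0.062 in MCT4-KO, -0.28 ± 0.064 in control cells). These were the 2 called genes with the smallest adjusted p among the 4 of the family. Values of Tfeb and Mitf are not given here.

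By level per length, with the same limit of the exon union, the 44 transcripts ranged widely. In control cells at 20% oxygen the highest were Ctsz (215 ± 17.2 CPM per kilobase), Ctsd (208 ± 7.77) and Hexa (179 ± 8.19), and the lowest Mcoln1 (2.83 ± 0.199), Cd68 (1.76 ± 0.308) and Ctsh (0.152 ± 0.0338). In control cells at 2% oxygen Ctsd came first (339 ± 10.9), followed by Hexa (264 ± 5.08) and Psap (254 ± 13.4), whose ranges overlapped, and Ctsh stayed last (0.682 ± 0.112). Exons of Ctsd and Ctsl overlap predicted genes on the same strand, those of Glb1 overlap Tmppe, and those of 12 genes, Ctsl, Ctsb, Cln3, Hexa and Atp6v0a2 among them, overlap a gene on the other strand. How the counting assigned such reads is not given in the sources used here.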

How the data were processed

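The samples were 16 RNA libraries, 4 per group, made from poly(A)-selected RNA per the labels' protocols. The authors deposited a table of estimated counts for 53801 genes, made with HISAT2 and RSEM on mm10 per the submitters' processing notes. Versions, annotation and strand setting were not given in the sources used here. Estimated counts (10.1% of the values were not whole) were rounded, and genes were kept by filterByExpr, which left 13774 with 99.9% of the counts. Library totals were 21192179 to 28871459, so a gene at 3 counts lies at the floor of detection. TMM scaling and edgeR 4.0.16 (R 4.3.3) quasi-likelihood F-tests used all 16 libraries with 1 mean per group (residual df 12, common biological variation 4.61%), with Benjamini-Hochberg adjustment over all 13774 genes. SE was the log2 fold change divided by the square root of F. Fold changes come from the same fit, and levels per kilobase divide CPM by the exon union of GENCODE vM21 (GRCm38). The authors' counts of all replicate pairs differed by more than sampling noise (chi-square per gene 1.75 to 12.2).

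Each listed gene was a result in each of 5 comparisons. For each class and comparison the called gene with the smallest adjusted p is given in every library, and genes outside this rule given by library (Ctss) were chosen after their values were seen; of the other lysosome lists, at most 2 called genes per list and comparison are named. The members and lists were chosen with earlier results of these data known. Alternatives were DESeq2 size factors, library size alone, no filter, the DESeq2 1.42.0 Wald test, only the groups compared, the replicate number as a block, and leaving out each library. The procedure was tested on simulated data for the comparison of MCT4-KO with control at 20% oxygen over 13774 genes, where it recovered 74% of genes changed 1.2-fold, 90% at 1.5-fold, 96% at 2-fold and 100% at 3-fold, with 4.26% false calls. The simulation used the spread fitted to these libraries and changed 200 genes, equally up and down. Between groups of the data, 9.76% to 78.3% of tested genes were called, so it does not measure errors that come from the scaling. Promoters came from RefSeq (GRCm38.p6), and 8 of the 44 genes had none there. Some items of the lists are not reported here.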

Additional observations from a re-analysis of the deposited data

Results flagged for a closer look

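Within groups of 4 libraries, 12 of 176 gene-and-group combinations had 1 library far from the others (Dixon's test at its 95% critical value, which chance exceeds in about 1 in 20 groups). Of these, 6 lay in replicate 4 of the control cells at 2% oxygen. That library had 114 CPM for Atp6v0b (96.9 to 99.9 in the other 3), 72.5 CPM for Atp6v1c1 (65.9 to 66.9), 159.5 CPM for Atp6v1e1 (139 to 142), 438 CPM for Cd63 (364 to 373) and 751 CPM for Psap (674 to 684), all higher, and 67.3 CPM for Smpd1 (71.7 to 72.5), which was lower. Replicate 2 of the control cells at 2% oxygen had 10.7 CPM for Cd68 (12.02 to 12.1). Replicate 2 of the MCT4-KO cells at 2% oxygen had 16.2 CPM for Mcoln1 (17.0 to 17.1). Replicate 1 of the MCT4-KO cells at 20% oxygen had 37.7 CPM for Atp6v0a1 (39.3 in each of the others). Among control cells at 20% oxygen, replicate 3 had 107 CPM for Atp6v0b (124 to 125) and 333 CPM for Psap (379 to 387), and replicate 2 had 339 CPM for Gusb (308 to 311).

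In 13 genes the log2 knockout difference at 2% oxygen departed from that at 20% oxygen by the interaction test of edgeR. It was higher at 2% oxygen for Ctss (0.27), Atp6v0a2 (0.21), Atp6v1h (0.18) and Atp6v1a (0.16). It was lower for Cd68 (-0.41), Ctsb (-0.26), Hexa (-0.25), Psap (-0.24), Tcirg1 (-0.22), Smpd1 (-0.21), Atp6v0c (-0.17), Gla (-0.15) and Glb1 (-0.12).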

How the results depend on the processing

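Of the calls at 2% against 20% oxygen, 29 of 33 higher and 7 of 7 lower genes in MCT4-KO cells, and 27 of 33 and 6 of 6 in control cells, held under every alternative run. Leaving out a library gave 33 higher and 7 lower in MCT4-KO cells, and 32 to 33 higher and 6 to 7 lower in control cells. Scaling by library size gave 11 lower in control cells and turned the direction of Gusb (-0.15) and Atp6ap1 (-0.049) in MCT4-KO cells and of Atp6v1c1 (-0.17), Atp6v1h (-0.11) and Ctsz (-0.071) in control cells. The cause was not tested.

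For MCT4-KO against control at 20% oxygen, the 5 higher became 8 with library size scaling, 8 with the DESeq2 Wald test and 3 on the groups compared alone, and 3 to 6 when a library was left out, with 3 without replicate 3 of either genotype. The 2 lower became 1 on the groups compared alone and 1 to 3 when a library was left out, with 1 without control replicate 1 or 2 or any MCT4-KO replicate. At 2% oxygen the 8 higher became 15 and the 13 lower became 8 with library size scaling, and omissions gave 6 to 10 higher and 10 to 13 lower. The interaction had 3 lower, not 9, with library size scaling, 3 to 7 lower when a library was left out (3 without replicate 4 of the MCT4-KO cells at either oxygen level), and 2 to 5 higher (2 without control replicate 3 at 2% oxygen).

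Same-numbered libraries of different groups did not deviate together: the correlation of their deviations was -0.064 to 0.12 over 24 pairs, 1 of them above 0.1, and 5 of 24 matched best with their own number, so the numbers were not taken to pair the samples. With the replicate number as a block, the counts at 20% oxygen were 3 higher and 1 lower, those at 2% oxygen 7 higher and 11 lower, the interaction had 4 higher and 4 lower, and the oxygen comparisons lost no call. Depth limits Ctsh, at 0.4 to 3.5 CPM, most.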
